A study of Mus musculus with 4 samples.

Results

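The oxidative phosphorylation genes described here were every gene of the deposited table whose symbol begins with mt-Nd, mt-Co, mt-Cytb or mt-Atp, with Ndufa, Ndufb, Ndufc, Ndufs or Ndufv, with Uqcr, with Cox4 to Cox8 or with Atp5, leaving out 1 pseudogene symbol. The rule used names alone and found 101 of 38201 genes, 13 in the mitochondrial genome and 88 in the nucleus. Oxidative phosphorylation is carried out by 5 protein complexes of the inner mitochondrial membrane, and the subunits of all but complex II come from 2 genomes. Complexes I, III and IV pass electrons from NADH to oxygen and pump protons, and complex V, the ATP synthase, uses the proton gradient to make ATP. In the mouse, as in other mammals, the mitochondrial genome encodes central membrane subunits of these 4 complexes on long polycistronic transcripts that are cut into single mRNAs, whereas the remaining subunits and the assembly factors are encoded in the nucleus, translated in the cytosol and imported. In the kidney these genes are known for their high level in the proximal tubule, which reabsorbs solutes at a high energy cost.

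RNA was sequenced from kidney cells of E18.5 mouse embryos that bound the lectin DBA and were collected by fluorescence-activated sorting, a gate meant to take ureteric epithelium. The DKO group, Esrp1 -/-, Esrp2 -/-, lacked both epithelial splicing regulators, and the control group was Esrp1 +/+, Esrp2 -/-, so that every library lacked intact Esrp2 and the groups differed by Esrp1. Each group had 2 libraries, each of them a pool of RNA from separate embryos, and the knockout was present in all cells of the embryo, not only in the sorted ones. The comparison asked which transcripts differed in these cells when Esrp1 was lost as well. Levels are in FPKM, fragments scaled for transcript length and for the fragments mapped, as the authors deposited them, and a log2 fold change is DKO minus control on log2(FPKM + 0.5), with its standard error (SE) from limma. A gene counted as called when its limma p, adjusted over all 18884 genes tested, was under 0.05 and its group averages differed by at least 2-fold.

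For Esrp1, the levels were 8.65 and 7.29 FPKM in DKO and 27.0 and 31.4 FPKM in control libraries, in the direction the labels say. Its log2 fold change was -1.81 (SE 0.152, adjusted p = 0.143 in limma), so the deleted gene itself was not called. A gene not called below is therefore not shown to be unchanged. The 12 markers of ureteric and collecting duct epithelium were all measured and summed to 1596 and 1695 FPKM in DKO and to 1179 and 1634 FPKM in control libraries. Of the 12, 5 were above both controls, 2 were below both and 5 overlapped. Markers of several other cell types also lay apart by group. Over all genes tested, 22.6% lay below both controls and 20.8% above both. All 12 proximal tubule markers were lower in both DKO libraries than in either control, with sums of 203 and 184 FPKM against 482 and 515 FPKM, and so were all 8 macrophage markers, with sums of 427 and 402 FPKM against 1604 and 780.4 FPKM, while all 8 stromal markers were higher, at 185 and 317 FPKM against 80.9 and 123 FPKM. None of the defining markers of these 3 lists was at 0 in any library. The proximal tubule marker Gatm was called, with a log2 fold change of -1.82 (SE 0.0967, adjusted p = 0.0431 in limma). It was the 1 gene called lower over all genes tested. All 9 mural cell markers (pericyte, smooth muscle, renin) had both DKO values above both control values, with summed levels of 98.8 and 141 FPKM in DKO and 44.99 and 83.9 FPKM in control libraries. For endothelium this held for 5 of 7, with sums of 176 and 217 FPKM against 91.7 and 158 FPKM. Of 9 erythroid markers, 5 were below both controls and 1 above, with sums of 1249.8 and 1424 FPKM against 2668 and 1766 FPKM. Markers of the remaining lists overlapped more often, where 10701 of all 18884 genes tested overlapped. The groups overlapped in 4 of 5 podocyte and 3 of 5 nephron progenitor markers, with the others above both controls. Of 6 tested markers of loop of Henle and distal tubule, 4 overlapped and 2 were below both controls, with a list median log2 fold change of -0.47. The 2 were Slc12a3 and Kl, with log2 fold changes of -1.88 (SE 0.165) and -1.43 (SE 0.215), and neither was called. Whether these cells contributed to the values that follow was not tested, and in sorted bulk RNA fewer cells of one type cannot be told apart from less RNA per cell. Control 1 stood apart from the other 3 libraries in depth, with a relative depth of 0.508 against 1.09 to 1.10 for DKO 2 and control 2, taking DKO 1 as 1, and with 18174 genes above 0 FPKM against 19211 to 19275. No total read numbers were used here, so the relative depths came from the smallest steps of low FPKM values.

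Some mitochondrial genes share bases, and FPKM for each member of such a pair depend on how the reads were divided. In the mm10 build, mt-Atp8 lies at chrM:7766-7969 and mt-Atp6 at chrM:7927-8607, both on the plus strand, and the last base of mt-Atp6 is the first of mt-Co3 (chrM:8607-9390). The overlap of mt-Atp8 and mt-Atp6 covers 43 bases, shown in capitals in the end of mt-Atp8 (chrM:7915-7969) and in the start of mt-Atp6 (chrM:7927-7981).
mt-Atp8 end: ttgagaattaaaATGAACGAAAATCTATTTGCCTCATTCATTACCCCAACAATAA
mt-Atp6 start: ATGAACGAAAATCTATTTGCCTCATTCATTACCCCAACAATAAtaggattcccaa
The 7 bases that mt-Nd4l (chrM:9877-10173) shares with mt-Nd4 (chrM:10167-11544) hold the stop codon of one gene and the start codon of the other, and are given in capitals at chrM:10144-10173 and chrM:10167-10196.
mt-Nd4l end: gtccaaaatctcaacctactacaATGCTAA
mt-Nd4 start: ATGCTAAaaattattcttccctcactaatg
These pairs are shown because mt-Nd4l was listed at 0 FPKM in all 4 libraries while mt-Nd4 was abundant, and because mt-Atp8 had the highest level of all members. Both pairs are known to be carried on shared mRNAs in mammals. The annotated mt-Nd4l is 297 bases long and mt-Atp8 is 204 bases long, the shortest of the 13 genes. All 22 mitochondrial tRNA genes of the table were listed at 0 as well, so a value of 0 here is a value of the table, not evidence that the RNA was lacking.

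The mRNAs of the mitochondrial genome were lower in DKO than in control libraries in value, by a median log2 fold change of -0.55 over the 12 genes with a level above 0, and none passed the test. In 11 of the 12, both DKO libraries were below both controls. These mRNAs are cut from shared polycistronic transcripts. Counts among the 12, here and below, are therefore not counts of independent genes. Over all genes tested, 22.6% lay below both controls and 20.8% lay above both, and 0.0212% were called, 0.0053% lower and 0.0159% higher. The median log2 fold change of all genes was -0.01. The 12 fold changes ran from -0.61 for mt-Nd2 to -0.34 for mt-Nd6, and the smallest adjusted p among them in limma was 0.637. The same 11 genes lay below both controls after rescaling to TPM, after rescaling to the sum of the genes outside the mitochondrial genome and after median-ratio scaling.

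**Figure D1:**
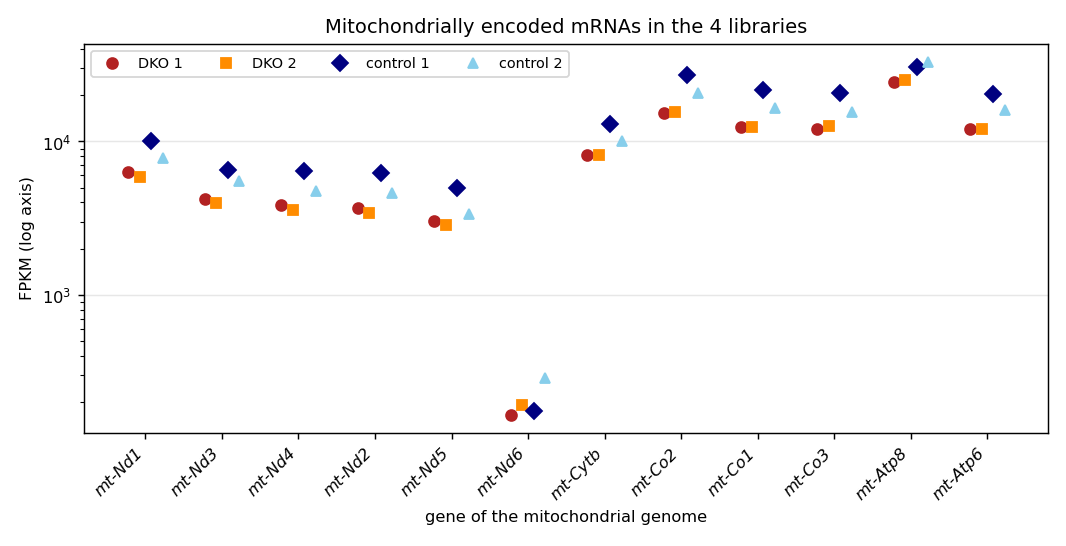
FPKM (log axis) of the 12 mitochondrially encoded mRNAs above 0, with 1 point per library: circles and squares for the 2 DKO libraries, diamonds and triangles for the 2 controls. Both DKO points lie below both control points for every gene but mt-Nd6, whose control 1 value of 175 FPKM lies between the DKO values of 163 and 190.5 FPKM.

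Complex IV, cytochrome c oxidase, has its 3 catalytic and membrane core subunits encoded by mt-Co1, mt-Co2 and mt-Co3. For mt-Co1, the subunit that holds the oxygen-binding centre, the levels were 12491 and 12459 FPKM in DKO and 21683 and 16596 FPKM in control libraries. The DKO pair nearly coincided while the controls lay apart, with control 1 the highest. Its log2 fold change was -0.60 (SE 0.746, adjusted p = 0.78). mt-Co2, which takes up electrons from cytochrome c, was at 15405 and 15639 FPKM in DKO against 26960.1 and 20629 FPKM in control, with a log2 fold change of -0.60 (SE 0.850, adjusted p = 0.808). mt-Co3 was at 12130.1 and 12560.4 FPKM against 20686 and 15584 FPKM, with a log2 fold change of -0.54 (SE 0.733, adjusted p = 0.802). In all 3 genes the order of the libraries was control 1, then control 2, then the DKO pair. The SE, which follows limma's variance trend and not the spread of these libraries alone, exceeded the difference.

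In complex V, mt-Atp6 encodes subunit a of the proton channel and mt-Atp8 a small subunit of the membrane part. mt-Atp6 was at 12107 and 12077 FPKM in DKO and 20532 and 16008 FPKM in control libraries, with a log2 fold change of -0.58 (SE 0.728, adjusted p = 0.784). mt-Atp8 was at 24330.2 and 25196 FPKM against 30499 and 33166 FPKM, a log2 fold change of -0.36 (SE 1.07, adjusted p = 0.914). On the same log2 scale DKO 1 minus DKO 2 was -0.05 and control 1 minus control 2 was -0.12. This SE was therefore far wider than the spread of these libraries. Here, unlike in the complex IV genes, control 2 was above control 1. Whether the overlap printed above or the short length of mt-Atp8 bears on these values was not tested.

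Complex III takes electrons from ubiquinol to cytochrome c, and its only mitochondrially encoded subunit is cytochrome b. The mRNA mt-Cytb (chrM:14145-15288, plus strand) was at 8159.6 and 8212 FPKM in DKO and 13014 and 10118 FPKM in control libraries. Both controls were above the DKO pair, and the log2 fold change was -0.49 (SE 0.568, adjusted p = 0.768).

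Complex I, the NADH dehydrogenase, has 7 mitochondrially encoded subunits that form the core of its membrane arm. mt-Nd1 (chrM:2751-3707), next to the ubiquinone site, was at 6333 and 5899.6 FPKM in DKO and 10057 and 7861 FPKM in control libraries, with a log2 fold change of -0.54 (SE 0.487, adjusted p = 0.714). mt-Nd2, mt-Nd4 and mt-Nd5 encode the antiporter-like subunits of the membrane arm. mt-Nd2 was at 3677 and 3399.6 FPKM against 6255 and 4632 FPKM, mt-Nd4 at 3877 and 3586 FPKM against 6397 and 4781 FPKM, and mt-Nd5 at 3048 and 2847 FPKM against 4961 and 3370.1 FPKM. These 3 mRNAs, like mt-Nd1 and mt-Nd3, had DKO 2 as the lowest library and control 1 as the highest. mt-Nd3 was at 4242 and 3954 FPKM against 6518 and 5518 FPKM. Its adjusted p in limma was 0.662, and those of mt-Nd2, mt-Nd4 and mt-Nd5 were 0.637, 0.653 and 0.674.

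mt-Nd6 is the only one of these mRNAs encoded on the other strand (chrM:13552-14070, minus strand), where it shares 14 bases with the end of mt-Nd5. Its level was far below those of the other 11, at 163 and 190.5 FPKM in DKO and 175 and 286 FPKM in control libraries, against a group mean of at least 2948 FPKM for any other mitochondrially encoded mRNA above 0. The groups overlapped, and the log2 fold change was -0.34 (SE 0.256, adjusted p = 0.673). The kit marked strand, but no source used here gives how strand entered the counting. Unlike in the plus-strand mRNAs other than mt-Atp8, the value in control 1 was below that in control 2.

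The standard errors of these abundant mRNAs depended on how limma set the variance. The fit follows a trend of variance with level, so these SEs are not the spread of each gene's own libraries alone. With no trend, 8 of the 12 had an unadjusted limma p under 0.05, all of them lower in DKO, where the share of all genes that were lower at that threshold was 6.8%. The smallest adjusted p of the 12 was then 0.431, and none was called. With robust empirical Bayes and the trend it was also 8 of the 12, all lower, against 7.38% of all genes, with a smallest adjusted limma p of 0.401.

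The 2 mitochondrial ribosomal RNAs, which lie upstream on the same strand, did not follow the mRNAs. mt-Rnr1, the small subunit rRNA, was at 3238 and 5403 FPKM in DKO and 2600.3 and 6241 FPKM in control libraries, and mt-Rnr2, the large subunit rRNA, at 1848 and 3153 FPKM and 2407 and 2833 FPKM. The groups overlapped in both. In these 2 genes DKO 1 and control 1 were below DKO 2 and control 2. The libraries were poly(A)-selected, so rRNA levels also carry what the selection kept.

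The nuclear members were at lower levels and lay on both sides of the controls. Of the 88, 82 were tested, all of them above 1 FPKM in every library, and the other 6 were listed at 0. Their mean levels ran from 1.88 to 690.3 FPKM, with a median of 109 FPKM. None was called, against 0.0212% of all genes. In 9 of the 82 both DKO libraries lay below both controls and in 3 both lay above, shares under those of all genes (22.6% and 20.8%), and 70 overlapped. The median log2 fold change was -0.08, with 64 negative and 18 positive values, where 51.3% of all genes were negative. That sign was not kept. Rescaled to TPM the nuclear median was 0.05, without control replicate 2 it was 0.12 and without DKO replicate 1 it was 0.01. TPM scaling moved the median of all genes from -0.01 to 0.11, and relative to that median the nuclear members were at -0.07.

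**Figure D2:**
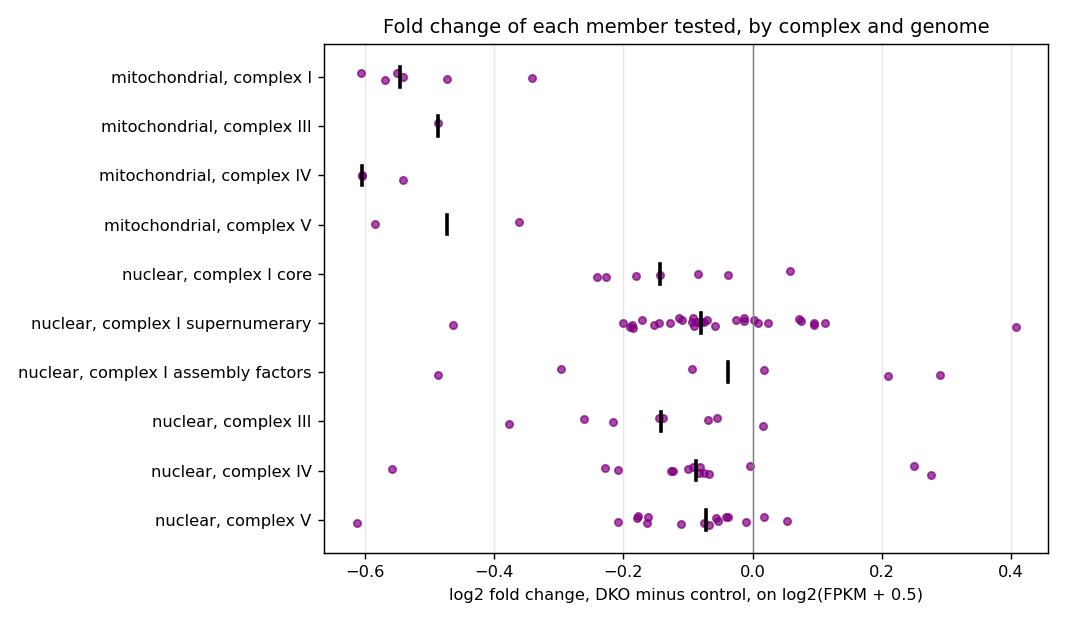
Log2 fold change (DKO minus control, on log2(FPKM + 0.5)) of each of the 94 members tested, with 1 point per gene and a black bar at the median of each complex. The single mitochondrially encoded genes lie between -0.61 and -0.34. The single nuclear genes run from -0.61 to 0.41, and the medians of their groups lie between -0.14 and -0.04. No single gene passed the test.

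The 7 nuclear core subunits of complex I carry its flavin and iron-sulfur centres, the path of electrons from NADH to ubiquinone. Their median log2 fold change was -0.14. Ndufv2, an iron-sulfur subunit of the NADH-binding module, was at 99.6 and 122 FPKM in DKO and 85.4 and 132 FPKM in control libraries. Control 1 was the lowest library and control 2 the highest, with the DKO pair between them. Ndufs7 and Ndufs1, both iron-sulfur subunits, lay below the controls in both DKO libraries. Ndufs7 was at 54.4 and 61.5 FPKM against 66.3 and 69.4 FPKM, with a log2 fold change of -0.23 (SE 0.108, adjusted p = 0.541). For Ndufs1 the values were 43.6 and 43.7 FPKM against 45.5 and 58.8 FPKM, with a log2 fold change of -0.24 (SE 0.148, adjusted p = 0.635). The DKO pair of Ndufs1 lay just under control 1 and well under control 2.

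The 31 supernumerary subunits surround that core and are needed for assembly and stability. Ndufa3 had the highest mean level of them, at 271 and 311 FPKM in DKO and 303 and 344 FPKM in control libraries. Ndufa4, counted here by its symbol although its protein is now placed in complex IV, was at 248 and 320.3 FPKM and 209 and 343 FPKM. Both overlapped between the groups. In 30 of the 31 the groups overlapped, and the median log2 fold change of the 31 was -0.08. The exception, Ndufa8, was at 72.2 and 69.9 FPKM against 72.2 and 90.5 FPKM, with a DKO 1 value next to that of control 1 and a log2 fold change of -0.19 (SE 0.137, adjusted p = 0.672). Ndufb10, a membrane arm subunit, was at 107 and 122 FPKM against 120.1 and 144 FPKM. Ndufb5 and Ndufs5 had the 2 widest fold changes. Ndufb5 had a log2 fold change of 0.41 with 103 and 119 FPKM in DKO and 57.0 and 122 FPKM in control, where control 1 was low. Ndufs5 had -0.46 with 43.4 and 23.3 FPKM and 34.0 and 57.2 FPKM, where the 4 libraries were spread and DKO 2 was the lowest. These 2 were chosen after their values were seen.

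Complex I assembly factors build the complex without staying in it, and 6 carry Ndufaf symbols. Their levels were low, with means from 9.92 to 28.0 FPKM. Ndufaf3, an early factor, was at 8.64 and 10.7 FPKM in DKO and 14.8 and 12.6 FPKM in control libraries (chr9:108565537-108567434, minus strand). Both DKO values were below both controls, and the log2 fold change was -0.49 (SE 0.173, adjusted p = 0.438). Its unadjusted limma p was 0.0382. Ndufaf4, which acts with Ndufaf3, overlapped between the groups, at 11.99 and 15.8 FPKM against 18.9 and 15.3 FPKM. Ndufaf6 was at 16.2 and 13.8 FPKM against 13.5 and 11.0 FPKM, with DKO above control and a log2 fold change of 0.29 (SE 0.164, adjusted p = 0.607). Ndufaf2, a late factor, was at 28.4 and 28.0 FPKM against 27.9 and 27.8 FPKM, where the 4 libraries lay within 1 FPKM of each other.

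In complex III, all 8 Uqcr genes were tested and 7 overlapped between the groups. Uqcrfs1 encodes the Rieske iron-sulfur protein, which passes electrons from ubiquinol to cytochrome c1 (chr13:30540308-30545362, minus strand). It was at 123 and 118 FPKM in DKO and 161 and 152 FPKM in control libraries. Both groups were tight and did not overlap, and the log2 fold change was -0.38 (SE 0.0992, adjusted p = 0.384), with an unadjusted p of 0.0132 in limma. Its fold change was the lowest of the 8. Uqcrh, the hinge protein, was at 258 and 291 FPKM and 242 and 333 FPKM, and Uqcr11, a small membrane subunit, at 209.9 and 244 FPKM and 218 and 287 FPKM. Uqcrb was at 195 and 233 FPKM and 225 and 272 FPKM. In these 3 control 2 was the highest library, and the median log2 fold change of the group was -0.14.

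The nuclear subunits of complex IV surround the catalytic core and tune its activity. Of 18 symbols, 14 were tested. Cox4i1 and Cox8a were the most abundant, at 416 and 503 FPKM and 366 and 404 FPKM in DKO and 416 and 563 FPKM and 354 and 469.5 FPKM in control libraries. In both, the DKO pair lay at or between the controls. Cox6a1 was the only one of the group below both controls, at 261 and 262 FPKM against 293 and 321 FPKM, with a log2 fold change of -0.23 (SE 0.116, adjusted p = 0.568). Cox6b2 was the only one above both, at 20.1 and 16.1 FPKM against 14.0 and 15.6 FPKM, with a log2 fold change of 0.28 (SE 0.157, adjusted p = 0.607).

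Several subunits of complex IV have isoforms that are restricted to certain tissues, such as heart and skeletal muscle, lung or testis. Of 8 such isoforms in the list used here, 4 were listed at 0 in every library: Cox6a2, known for heart and skeletal muscle, and Cox7b2, Cox8b and Cox8c. The lung isoform Cox4i2 was at 2.05 and 2.05 FPKM in DKO and 2.25 and 1.17 FPKM in control libraries, far below its partner Cox4i1. Cox7a1, the heart and muscle form, was at 9.90 and 3.51 FPKM and 7.32 and 11.1 FPKM against 90.9 and 112 FPKM and 89.0 and 136 FPKM for Cox7a2. Its DKO values lay further apart than the group means, and its log2 fold change of -0.56 had an SE of 0.497. Cox6b2, known from testis, was far below Cox6b1, which had 334 and 373 FPKM and 315 and 439 FPKM. Ndufa4l2, the paralog of Ndufa4 known to be induced in low oxygen, was at 2.82 and 4.45 FPKM and 2.87 and 5.18 FPKM. In each of the 7 partner sets the widely used form had the higher FPKM in all 4 libraries. Cox7b was at 101 and 115 FPKM and 95.6 and 138 FPKM.

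**Figure D3:**
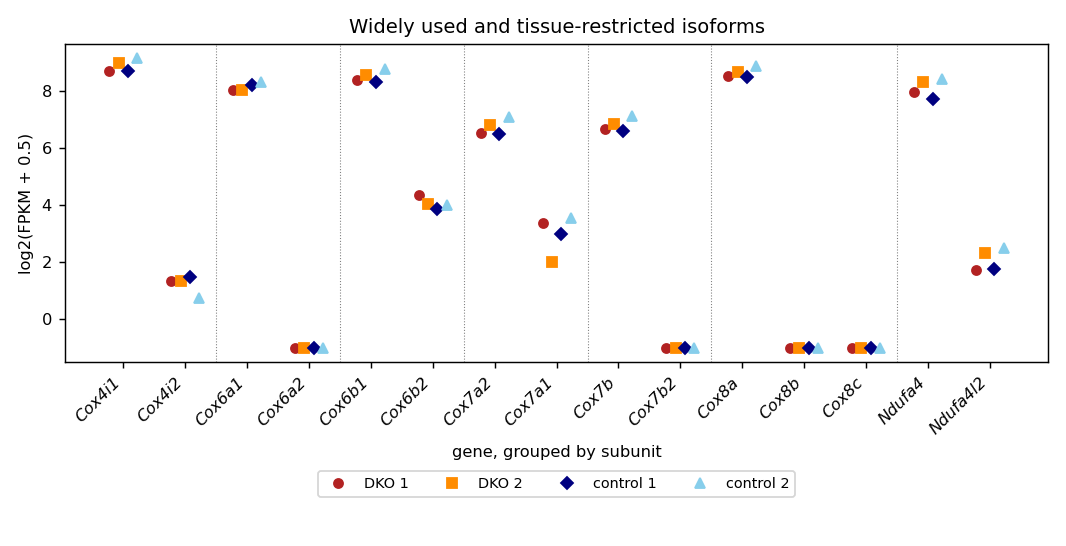
Level on log2(FPKM + 0.5) of 15 isoform genes, grouped by subunit between the dotted lines, with 1 point per library. The first gene of each set is the widely used form and lies highest, and the genes at the bottom, at -1, are those listed at 0 FPKM in all 4 libraries.

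Complex V consists of the catalytic F1 part, encoded by Atp5a1, Atp5b, Atp5c1, Atp5d and Atp5e, and the membrane part with its ring of c subunits. Atp5b, the catalytic beta subunit, had the highest level of all nuclear members, at 668 and 684 FPKM in DKO and 583 and 826 FPKM in control libraries. The DKO pair lay between the controls. Atp5a1, the alpha subunit, was at 448 and 454 FPKM against 481 and 541 FPKM, and Atp5l, the g subunit of the membrane part, at 149 and 167 FPKM against 182 and 183 FPKM. These 2 were below both controls, with log2 fold changes of -0.18 (SE 0.138) and -0.21 (SE 0.110). Of the 18 Atp5 symbols 16 were tested, and 13 overlapped between the groups.

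The c subunit is encoded by 3 genes whose mature proteins are known to be identical. Atp5g1 (chr11:96068852-96075670, minus strand) was at 35.2 and 38.1 FPKM in DKO and 59.0 and 53.6 FPKM in control libraries. Neither DKO value came near a control value, and the log2 fold change was -0.61 (SE 0.107, adjusted p = 0.365). Its unadjusted limma p of 0.00244 was the smallest of all members. Atp5g3 (chr2:73908447-73911326) was several times more abundant and overlapped between the groups, at 380.3 and 423 FPKM and 343 and 476 FPKM. Atp5g2 was listed at 0 in all 4 libraries. The last 60 coding bases of the 3 genes, stop codon included, are given with the positions at which they differ in capitals.
Atp5g1, chr11:96073104-96073163: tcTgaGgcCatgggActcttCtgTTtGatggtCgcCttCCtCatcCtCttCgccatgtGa
Atp5g2, chr15:102663014-102663073: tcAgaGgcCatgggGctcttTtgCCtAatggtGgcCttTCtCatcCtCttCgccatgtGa
Atp5g3, chr2:73908593-73908652: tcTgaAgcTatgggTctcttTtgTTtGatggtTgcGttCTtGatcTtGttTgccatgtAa
All 3 are on the minus strand of mm10. Over this stretch Atp5g1 had 52 of 60 bases in common with Atp5g2 and 48 with Atp5g3. No source used here gives how reads that match more than one copy were handled, and whether such reads bear on the 3 levels was not tested.

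The 3 nuclear members with an unadjusted limma p under 0.05 were Atp5g1, Uqcrfs1 and Ndufaf3, all lower, and no member was higher at that threshold. Over all genes tested, 7.35% were lower and 3.35% were higher at that threshold. In this fit the 3 of 94 members were not above the background. The count depended on the fit, with 10 of 94 lower with no variance trend and 11 of 94 lower with robust empirical Bayes, 8 of them mitochondrially encoded in each of these fits.

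The controls differed from each other, and in opposite directions for the 2 genomes. Control 1 was below control 2 in 73 of the 82 nuclear members, against 45.3% of all genes, with a median log2 difference of -0.38. It was below control 2 in all 38 core and supernumerary members of nuclear complex I. For the mitochondrially encoded mRNAs it was above control 2 in 10 of 12, against 52.5% of all genes, with a median log2 difference of 0.37, the exceptions being mt-Nd6 and mt-Atp8. The DKO pair differed less: DKO 1 was below DKO 2 in 68 of 82 nuclear members, where 47.8% of all genes were so, with a median log2 difference of -0.18. In the mitochondrially encoded mRNAs the median difference of the DKO pair was 0.00. The 9 nuclear members in which control 1 was above control 2 included Atp5g1, Uqcrfs1 and Ndufaf3.

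**Figure D4:**
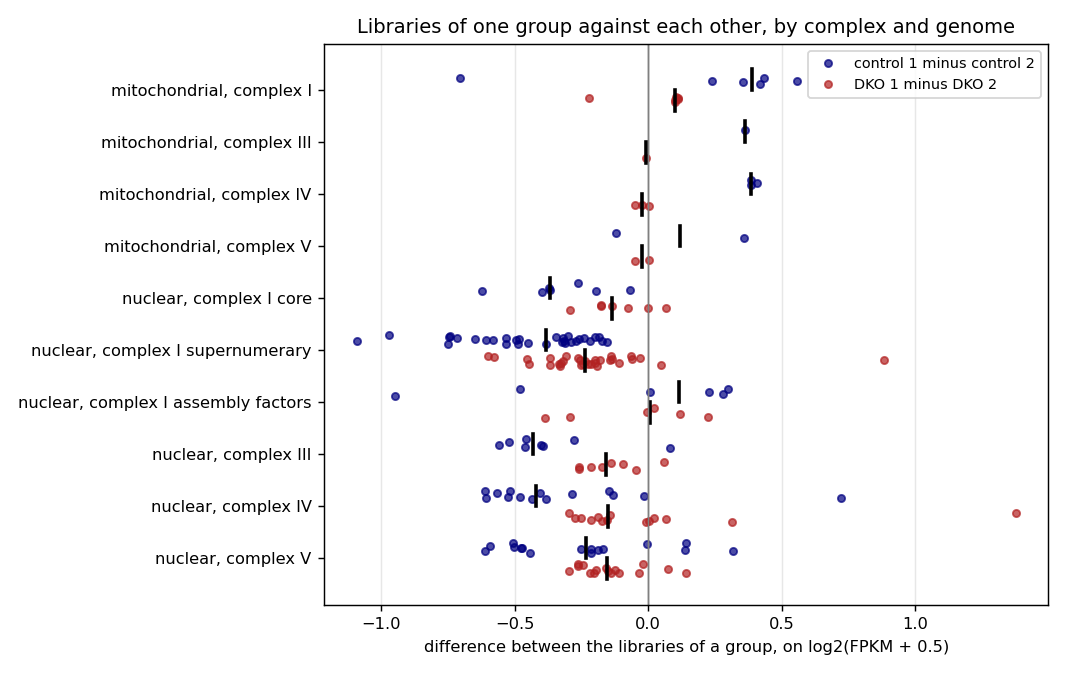
Difference between the 2 libraries of a group on log2(FPKM + 0.5), for each member tested, by complex and genome, with black bars at the medians. Blue points (control 1 minus control 2) lie right of 0 for 10 of 12 mitochondrially encoded mRNAs and left of 0 for 73 of 82 nuclear members; red points (DKO 1 minus DKO 2) lie closer to 0 in the group medians.

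The direction of the comparison for the nuclear members turned on which control was used. Against control 2, both DKO libraries were lower in 69 of 82 nuclear members (36.8% of all genes), with a median log2 difference of -0.29. Against control 1, both were higher in 37 of 82 (37.3% of all genes) and lower in 13, with a median of 0.12. The mitochondrially encoded mRNAs were lower against either control, in 12 of 12 against control 2, with a median of -0.40, and in 11 of 12 against control 1 (43.5% of all genes), with a median of -0.75. Control 1 was the library of lowest depth and of the highest macrophage marker sum, and the part of either in these differences was not tested.

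Summed over the 12 mRNAs above 0, the mitochondrially encoded members made up 18.2% and 17.2% of all FPKM in DKO libraries and 24.7% and 21.8% in controls. The means were 17.7% ± 0.728 (SD, n = 2) and 23.2% ± 2.10 (SD, n = 2), a difference of -5.55 percentage points. The groups did not overlap, and the exact two-sided permutation test gave p = 0.333, the smallest value that 2 libraries against 2 can give. The nuclear members summed to 1.83% and 1.95% in DKO and to 1.56% and 2.16% in control libraries, with control 1 the lowest and control 2 the highest. The ratio of the mitochondrial to the nuclear sum was 9.93 and 8.81 in DKO libraries and 15.8 and 10.1 in controls. Both controls were above both DKO libraries, but control 2 was closer to DKO 1 than to control 1, and the exact permutation p was again 0.333. Since an FPKM share of 1 group of genes lowers the shares of all others, these shares are not independent of each other.

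**Figure D5:**
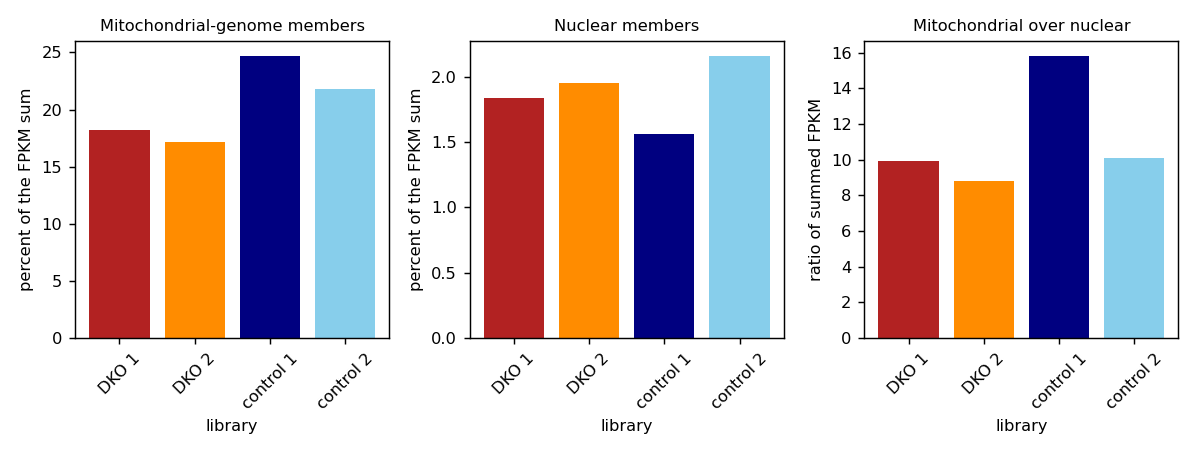
Bars from 0 for each library: the percent of the FPKM sum in mitochondrial-genome members (left) and in nuclear members (middle), and the ratio of the 2 sums (right). Mitochondrial shares are 18.2% and 17.2% in DKO and 24.7% and 21.8% in control libraries, and control 1 has the highest ratio, 15.8, against 8.81 to 10.1 in the other 3.

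The same ratio was taken within each complex, between the median FPKM of its mitochondrially encoded and its nuclear subunits. In complex I, assembly factors left out, it was 51.9 and 41.1 in DKO libraries and 88.8 and 50.9 in controls. In complex III it was 51.4 and 46.0 in DKO and 69.9 and 47.7 in controls. In both complexes control 2 lay between the DKO libraries. In complex IV it was 74.0 and 68.9 against 127 and 80.1, and in complex V 96.6 and 85.4 against 133 and 101. In these 2 complexes the groups did not overlap, with an exact permutation p of 0.333. Control 1 had the highest ratio in all 4 complexes.

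Promoter sequence of the nuclear members was also searched for known motifs, which the rule did not use. NRF1, a transcription factor known to bind promoters of many respiratory chain genes, recognises sites with the self-complementary core TGCGCA. In windows of 250 bases before to 50 after the start site (RefSeq, GRCm38.p6), which matched 69 of the 88 nuclear members by symbol, this core was found in 16 (23.2%), against 8.79% of all 27025 genes with a window and 15.4% of the 9689 with a mean above 1 FPKM. The YY1 motif ATGGCGG, searched on both strands, was in 10 members (14.5%), against 4.69% and 9.03%, and the ETS-type motif CCGGAAG, of the kind bound by GABP and also searched on both strands, in 15 (21.7%), against 9.93% and 19.1%. The 3 motifs do not contain one another. A match is a description of the letters and not of binding. The first match in each member that the naming rule picked and that had one, and in Atp5g2, is printed with 12 bases on either side and the core in capitals, to show the core in its place in members of complexes I, IV and V.
Atp5g2, chr15:102671067-102671096, minus strand: tccggccgcgcaTGCGCAgagccttccctc
Atp5l, chr9:44920962-44920991, minus strand: accaataacgcaTGCGCAtttcccccactt
Cox6a1, chr5:115349059-115349088, minus strand: ggacggataaagTGCGCAggcgctggagtt
Ndufa8, chr2:36049326-36049355, minus strand: gctggagacgcaTGCGCAgatggtaccggg
Ndufaf4, chr4:24897957-24897986, plus strand: cgcccagatgtcTGCGCAtgcgcctgtgcg
Ndufb10, chr17:24724409-24724438, minus strand: ctgtcacctttcTGCGCAggcgtagaggtc
Each is written in the direction of its gene. Among these genes, Cox6a1, Atp5l and Ndufa8 were below both controls, Ndufb10 and Ndufaf4 overlapped between the groups, and Atp5g2 was listed at 0. The mRNA of Nrf1 itself was at 22.7 and 22.4 FPKM in DKO and 21.5 and 21.3 FPKM in control libraries, Yy1 at 44.0 and 42.6 FPKM and 42.5 and 42.7 FPKM, and Gabpa, the DNA-binding subunit of GABP, at 26.5 and 27.1 FPKM and 25.8 and 25.4 FPKM. In each of the 3 the libraries lay within 2 FPKM of each other.

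Other genes of the pathway were read from lists of assembly factors, carriers of electrons and regulators, and none of their genes was called. Complex II, which is encoded in the nucleus alone and passes electrons from succinate to ubiquinone, had 1 of 4 subunits lower at an unadjusted limma p under 0.05. This was Sdhd, a membrane anchor, at 120.5 and 127 FPKM in DKO and 171 and 153 FPKM in control libraries, with a log2 fold change of -0.39 (SE 0.109, adjusted p = 0.384). The list median was -0.07. Of 17 assembly factors of complexes II and IV, 8 were below both controls and 2 above (22.6% and 20.8% of all genes), 1 was lower at that threshold (7.35% of all genes), and the median was -0.10. That one was Sco2, a copper chaperone, at 7.83 and 8.42 FPKM against 13.3 and 10.7 FPKM, while the more abundant copper chaperone Cox17 was at 63.1 and 66.6 FPKM against 72.6 and 76.4 FPKM. Of 7 further complex I assembly factors, 3 were below both controls and 1 above, 1 was lower at that threshold, and the median was -0.11. The gene at that threshold was Foxred1, at 14.4 and 15.4 FPKM against 19.0 and 18.7 FPKM. Acad9 was at 24.8 and 21.8 FPKM against 25.4 and 24.0 FPKM.

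The 4 complex III assembly factors all overlapped between the groups, Uqcc at 33.5 and 38.8 FPKM and 28.8 and 42.1 FPKM and Ttc19 at 11.8 and 8.95 FPKM and 12.5 and 11.3 FPKM. Of 6 genes for assembly, stability or inhibition of complex V, 4 were below both controls (22.6% of all genes) and the median log2 fold change was -0.25. The most abundant was Usmg5, a small protein of the ATP synthase dimer, at 394 and 386 FPKM in DKO and 520.0 and 519 FPKM in control libraries, with the controls nearly equal and a log2 fold change of -0.41 (SE 0.124, adjusted p = 0.396). Among 15 genes of cytochrome c and coenzyme Q synthesis, Cycs, which encodes the cytochrome c of somatic cells, was at 13.8 and 14.2 FPKM against 20.7 and 19.7 FPKM. Its groups did not overlap, and its log2 fold change was -0.51 (SE 0.113, adjusted p = 0.38). Cyc1, the cytochrome c1 subunit of complex III, was at 131 and 141 FPKM against 146 and 177 FPKM, and the list median was -0.04.

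The lists of genes that act on mitochondrial DNA and RNA had median log2 fold changes close to the -0.01 of all genes. Of 14 genes for replication and transcription of mitochondrial DNA, 3 were below both controls and 1 above (22.6% and 20.8% of all genes). The 3 below were Polrmt, Tfb2m and Polg2, with log2 fold changes of -0.34, -0.29 and -0.41. The 1 above was Rnaseh1, with 0.15. The other 10 overlapped between the groups. None of the 14 had an unadjusted limma p under 0.05 (7.35% of all genes lower and 3.35% higher), and the median was -0.03. Polrmt, the mitochondrial RNA polymerase, was at 13.5 and 11.5 FPKM in DKO and 17.9 and 14.0 FPKM in control libraries, and Tfam, which packages the genome and starts transcription, at 32.2 and 37.0 FPKM and 31.98 and 44.1 FPKM. Ssbp1, the single-strand binding protein, was at 36.3 and 40.8 FPKM and 45.8 and 36.7 FPKM. Of 17 genes for processing and stability of mitochondrial RNA, 5 were below both controls, 2 were above and 10 overlapped. None of them passed that threshold, and the median was -0.04. The most abundant was Hsd17b10, a subunit of mitochondrial RNase P, at 102 and 102 FPKM and 104 and 111 FPKM. Fastk, which encodes an RNA-binding protein linked to the mt-Nd6 mRNA, was at 45.6 and 38.5 FPKM and 49.2 and 47.9 FPKM.

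Of 11 regulators of mitochondrial biogenesis, 5 were below both controls and 2 above (22.6% and 20.8% of all genes), and 3 were lower at an unadjusted limma p under 0.05 (7.35% of all genes). Ppargc1a, the coactivator PGC-1 alpha, was at 15.6 and 15.3 FPKM in DKO and 18.9 and 21.8 FPKM in control libraries, with a log2 fold change of -0.39 (SE 0.127, adjusted p = 0.418). Esrra, a nuclear receptor that works with it, was at 16.7 and 17.4 FPKM against 21.4 and 25.7 FPKM, with a log2 fold change of -0.45 (SE 0.134, adjusted p = 0.394). Nfe2l2, the oxidative stress factor, was at 52.0 and 50.9 FPKM against 69.6 and 63.2 FPKM, with a log2 fold change of -0.36 (SE 0.1005, adjusted p = 0.384). In all 3 the groups did not overlap, and the list median was -0.17. Proximal tubule markers were lower in the same libraries, and their part in these values was not tested.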

How the data were processed

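Poly(A)-selected, strand-marked paired-end libraries of sorted kidney cells from 2 DKO and 2 control pools were deposited by the authors as 1 table of FPKM per gene and library, on mm10. Per the submitters' processing notes, reads were aligned or quantified with TopHat (version 1.4.1) and Cuffdiff (version 2.2.1); no source used here gives how the libraries were scaled. The authors' group averages in that table were not used, and 2 lines without a gene were left out. Groups came from the sample titles. The members and gene lists were chosen with earlier results of these data known.

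From the deposited FPKM, log2(FPKM + 0.5) was tested in limma 3.58.1 (R 4.3.3, empirical Bayes with a variance trend, two-sided) over the 18884 genes with more than 0.1 FPKM on average in at least 1 group, with Benjamini-Hochberg adjustment. No test was adjusted over the members alone. The test was also run on simulated data, and that run is not used here as support for any call. Named genes were every mitochondrially encoded member, in each nuclear group the 2 highest and the 2 with the smallest p, the isoform list, and in each pathway list the highest gene and the one with the smallest p; genes named beyond this rule were chosen after their values were seen. Some genes that the rule names are not reported here. Each pool stands for 1 replicate. Total fragments per library were not used, so no counting intervals are given. Gene positions came from GENCODE M21 (mm10) and promoter windows from RefSeq (GRCm38.p6). Alternatives were the pseudocount, the filter, 3 scalings, 2 variance models, a replicate block and leaving out each library.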

Additional observations from a re-analysis of the deposited data

How the results depend on the processing

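No member was called under any of the 14 alternatives, and the median of the mitochondrially encoded mRNAs stayed negative under all of them. That median was -0.55, -0.41 after TPM scaling, and from -0.75 (without control replicate 2) to -0.40 (without control replicate 1) when 1 library was left out. The nuclear median of -0.08 turned to 0.0473 when FPKM were rescaled to TPM, and leaving out a library put it between -0.29 and 0.12, with positive values without DKO replicate 1 (0.01) and without control replicate 2 (0.12). TPM raised the median of all genes as well. The difference in mitochondrial share of -5.55 points ran from -7.04 to -4.07 when 1 library was left out. Over all genes, 4 were called, against 1 with no filter, 8 when libraries were scaled to equal sums of the genes outside the mitochondrial genome, 2 with no variance trend and 16 with a replicate block, and 0 without any one library (range 0 to 0). The cause of these changes was not tested, and the fits without 1 library also rested on a smaller sample. Without any one library, unadjusted p under 0.05 were found in 273 to 2821 genes lower and 399 to 1710 genes higher. Of 63 named genes tested, none was called under any alternative, and 13 changed sign under TPM and 4 to 13 when 1 library was left out.

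The replicate numbers 1 and 2 occur in both groups, but nothing ties equal numbers to a shared litter or day. Over the genes tested the deviations of equal-numbered libraries had r = 0.105, and over the nuclear members 0.0616, with 2 pairs. With a replicate block no member was called either, and the smallest adjusted p of a member in limma was 0.171. Each group had 2 pooled libraries, 70 of 82 nuclear members overlapped between the groups, and mRNAs at 0 in the table could not be assessed.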

Other observations

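Genes that feed electrons or substrate into oxidative phosphorylation were read from 3 further lists, and none was called. Glycolysis had 11 of 20 genes below both controls and 0 above, where 22.6% and 20.8% of all genes were so, and 8 were lower and 0 higher at an unadjusted limma p under 0.05 (7.35% and 3.35% of all genes). The list median log2 fold change was -0.26. Aldoa, a fructose-bisphosphate aldolase and the most abundant of the list, was at 374 and 392 FPKM in DKO and 486 and 597 FPKM in control libraries, with a log2 fold change of -0.49 (SE 0.158, adjusted p = 0.408) in limma. Pgam1, phosphoglycerate mutase, was at 31.1 and 30.5 FPKM against 45.5 and 42.5 FPKM, with a log2 fold change of -0.51 (SE 0.0984, adjusted p = 0.373).

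In the citric acid cycle 5 of 13 genes were below both controls, 0 were above, and 1 was lower at that threshold, beside the same shares of all genes. This was Dlst, a subunit of the oxoglutarate dehydrogenase complex, at 58.0 and 56.4 FPKM in DKO and 67.0 and 73.7 FPKM in control libraries. Mdh2, malate dehydrogenase, had the highest mean, at 128 and 129 FPKM and 116 and 168 FPKM. Of 12 carriers, porins and uncoupling proteins, 10 were tested and 7 overlapped between the groups. Slc25a5, an ADP/ATP carrier, was at 338 and 370.5 FPKM and 369 and 449 FPKM. Its germ cell paralog Slc25a31 was the 1 gene of the list that was higher at an unadjusted limma p under 0.05, at levels of 0.392 and 0.502 FPKM against 0 and 0.0712 FPKM, below 1 FPKM in every library.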
